A study of Homo sapiens with 6 samples.

Results

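RNA of the cytoplasm was set against RNA of the total cell in forebrain neurons grown from H9, an established human embryonic stem cell line. The 4 libraries of this comparison, 2 labelled cytoplasm and 2 labelled total cell, are part of a series of 6, and the other 2 libraries hold nuclear RNA. The 3 deposited tables were read one at a time, and a feature was kept when its mean over the 4 libraries reached a set level. In the table labelled mRNA, which holds every gene type, 14924 of 59609 genes had a mean of at least 1 FPKM (reads scaled by gene length and by the reads of the library). In the lncRNA table (long noncoding RNAs), 5253 of 17936 genes reached 0.3 FPKM. In the circRNA table (circular RNAs, closed rings that are recognised by reads across a back-spliced junction), 1213 of 31559 rings reached 0.37 FPB, read here as back-splice fragments per Gb of mapped bases. All cells were wild type, untreated and collected at day 26, and the labels call them both forebrain neurons and forebrain neuron progenitor cells. The fractions therefore differ in nothing that the labels name but the compartment the RNA came from.

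A messenger RNA is made in the nucleus, spliced, exported through nuclear pores and translated on ribosomes in the cytoplasm. Small nucleolar and small Cajal body RNAs guide chemical changes on other RNAs inside the nucleus, and several long noncoding RNAs stay there at speckles or on chromatin. Mitochondria carry their own genome and their transcripts lie in the cytoplasm, whereas circRNAs, made by back-splicing in the nucleus, gather mainly in the cytoplasm in many cell types. Total cell RNA holds all of these together, and ribosomal RNA was removed from every library, so RNAs without a poly(A) tail were also read. FPKM and FPB are shares of a library: a value that is higher in the cytoplasm libraries says that the RNA took a larger share there, not that more molecules were present.

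The gene values rest on 38.7 and 45.7 Mreads (1 Mread being 1e6 reads) in the cytoplasm libraries and on 34.9 and 37.4 Mreads in the total cell libraries, as the steps between low FPKM values show. For the nuclear libraries the steps give 120 and 112 Mreads. Of these, 23.5% and 25.3% were recovered in genes of the mRNA table, against 59.7% to 67.7% in the other libraries. Nuclear FPKM were low for the typical gene (median nucleus minus total cell -1.02), and the part of the denominator in this was not tested. The circRNA values rest on 46002 and 52244 back-splice reads in the cytoplasm libraries, against 26114 and 33318 such reads for the total cell. The FPKM values of the total cell libraries were written with more than 6 digits in 100% of their nonzero values, against at most 0.0177% of the nonzero values of any other gene column, so the total cell columns were written in another way, and its part in the results was not tested. The labels do not say whether the replicates came from separate cultures, and p-values then measure only the spread between these libraries. With 2 libraries a group, the spread was shared over all 6 libraries in limma, a linear model with a spread pooled over genes. The fold changes below are differences of log2(FPKM + 1), or of log2(FPB + 0.123) for circRNAs, cytoplasm minus total cell, ± the standard error, and they understate the change of low features. A feature is called higher or lower where limma's adjusted p was under 0.05 over the whole table.

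The typical gene of the mRNA and lncRNA tables took a smaller share of the cytoplasm libraries than of the total cell libraries, and the typical circRNA did so as FPB but not per read of the gene tables (median 0.45). The median log2 fold change was -0.21 in the mRNA table (quartiles -0.77 and 0.30), -0.46 in the lncRNA table (quartiles -0.82 and -0.03) and -0.38 in the circRNA table (quartiles -0.87 and 0.08). Of the genes of the mRNA table, 3913 (26.2%) were called higher and 6982 (46.8%) lower in the cytoplasm libraries. After each library was scaled so that the typical gene did not differ, which gives the value relative to the table median, 5841 (39.1%) were called higher and 6138 (41.1%) lower. The lncRNA table leaned further to one side, with 602 (11.5%) called higher and 3198 (60.9%) lower as deposited, and 1565 (29.8%) higher and 2106 (40.1%) lower relative to its median. Few circRNAs passed, with 2 (0.165%) called higher and 30 (2.47%) lower as deposited and 0 (0.0%) higher and 6 (0.495%) lower relative to the median, and 210 and 108 had an unadjusted limma p under 0.05 on those scales. On reads recovered from the FPB steps, edgeR's quasi-likelihood test called 4 higher and 19 lower relative to the median. The count of 30 lower rings became 3 without cytoplasm replicate 1, 2 without cytoplasm replicate 2, 11 without total cell replicate 1, 12 without total cell replicate 2, and 44 and 48 without nuclear replicates 1 and 2. Both cytoplasm values lay above both total cell values in 33.0% of the genes of the mRNA table and below them in 53.4%, in 16.8% and 68.9% of the lncRNAs, and in 8.99% and 43.9% of the circRNAs. The filter counts more features that reached it through the total cell mean alone (2558 genes, 1879 lncRNAs and 299 circRNAs) than through the cytoplasm mean alone (304, 89 and 82), and such features had to differ in that direction. Just inside and outside the filter lay BMPR1B at 1.0007 and MIR6892 at 0.99998 FPKM, AL359711.2 at 0.30003 and AC022872.1 at 0.2997 FPKM, and the rings of ZFHX3 at 0.3705 and RSF1 at 0.3698 FPB.

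The 8 protein-coding genes lowest in the cytoplasm libraries were genes of large proteins of the neuronal surface, skeleton and matrix, with 1 zinc finger gene among them. MAP1B, a microtubule-associated protein of growing axons, had 14.3 and 13.04 FPKM in the cytoplasm libraries, against 186 and 214 FPKM in the total cell libraries (log2 fold change -3.77 ± 0.14, adjusted p = 2.1e-11, limma). VCAN, which encodes the matrix proteoglycan versican, had 6.35 and 5.72 FPKM in the cytoplasm libraries, against 79.8 and 95.1 FPKM in the total cell libraries (-3.65 ± 0.14). The groups lay far apart in both genes, and the 2 libraries of each group lay close together. GRIA2, a subunit of AMPA-type glutamate receptors, had 0.3099 and 0.269 FPKM in the cytoplasm libraries, against 12.6 and 15.3 FPKM in the total cell libraries (-3.53 ± 0.12). ZNF91, a zinc finger repressor of retrotransposons, had 1.37 and 1.09 FPKM in the cytoplasm libraries, against 18.8 and 23.1 FPKM in the total cell libraries (-3.29 ± 0.13). ANK3, the ankyrin that anchors channels at the start of the axon, had 0.269 and 0.268 FPKM in the cytoplasm libraries, against 9.91 and 11.5 FPKM in the total cell libraries (-3.20 ± 0.11). In each of these genes the lower of the total cell values was several times the higher of the cytoplasm values. RELN, the secreted guide of migrating neurons, had 1.39 and 1.22 FPKM in the cytoplasm libraries, against 17.7 and 20.9 FPKM in the total cell libraries (-3.14 ± 0.12). KIDINS220, a scaffold of neurotrophin receptors, and SPTBN1, a spectrin of the membrane skeleton, fell by 2.96 and 2.92 on the log2 scale. These 8 genes were also lower in the nuclear than in the total cell libraries: GRIA2 had 0.474 and 0.589 FPKM there and VCAN 7.77 and 9.39 FPKM, while MAP1B reached 48.6 and 58.01 FPKM.

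The 8 protein-coding genes highest in the cytoplasm libraries were all replication-dependent histone genes, whose messages end in a stem-loop in place of a poly(A) tail. H4C13, a histone H4 gene of the large cluster on chromosome 6, had 72.02 and 77.7 FPKM in the cytoplasm libraries, against 10.97 and 12.2 FPKM in the total cell libraries (log2 fold change 2.59 ± 0.13, adjusted p = 1.5e-10, limma). H3C11, a histone H3 gene next to it, had 131 and 127 FPKM in the cytoplasm libraries, against 20.9 and 23.6 FPKM in the total cell libraries (2.49 ± 0.13). H2BC17, a histone H2B gene, had 290.1 and 298 FPKM in the cytoplasm libraries, against 53.5 and 54.5 FPKM in the total cell libraries (2.42 ± 0.13). The cytoplasm values were above all total cell values in each of these genes, and the nuclear values were near the total cell values, for example 9.37 and 9.69 FPKM for H4C13. The other 5 were H3C15 (2.48), H3C8 (2.44), H3C7 (2.43), H4C14 (2.41) and H2BC11 (2.41). H3C15 and H4C14 share exons with other histone genes in the annotation, and histone genes resemble each other closely, so reads may be split between them. Over all histone genes, 67 of 70 tested were called higher and 0 lower, with a median log2 fold change of 2.05, beside -0.21 over all genes tested. The histone gene with the highest mean, H4C11, had 1658 and 1764 FPKM in the cytoplasm libraries, against 419 and 382 FPKM in the total cell libraries (2.09 ± 0.15). The linker histone gene H1-4 had 1175 and 1086 FPKM in the cytoplasm libraries, against 418 and 418 FPKM in the total cell libraries (1.43 ± 0.15). Among the replication-independent members, looked up after the values were seen, H2AZ1 was called higher (1.40), whereas H3-3A (0.04) and H3-3B (0.31) did not pass the test.

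**Figure D1:**
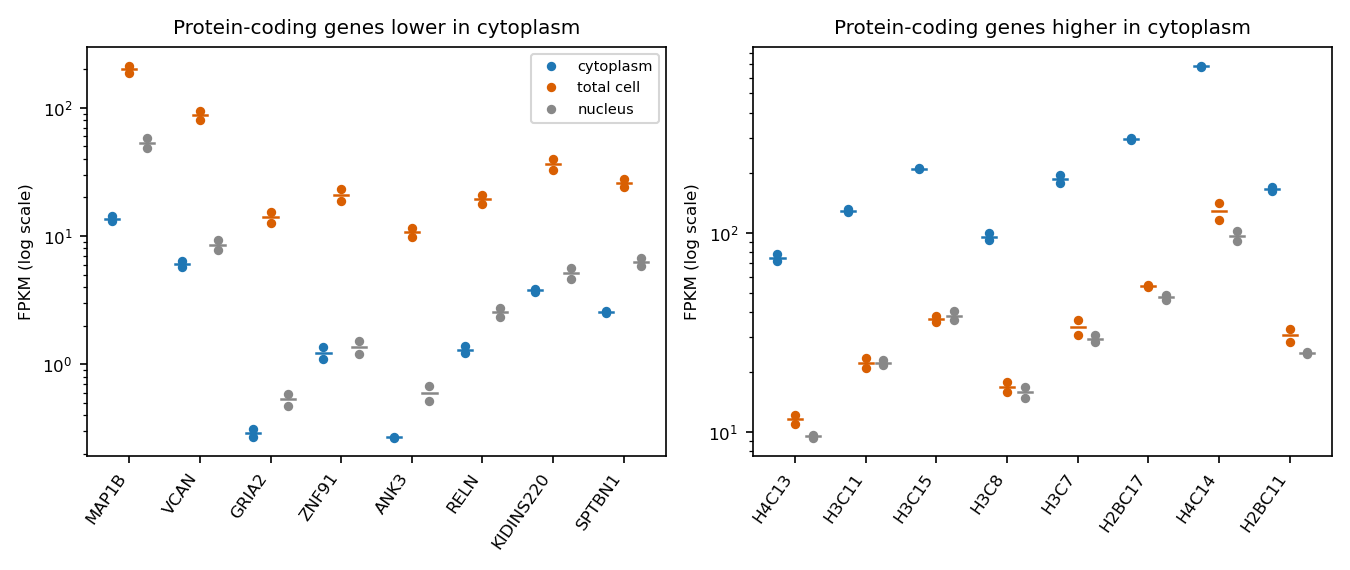
FPKM on a log axis of the 8 lowest and 8 highest protein-coding genes, with dots for single libraries and lines for the mean of each fraction, in the order cytoplasm, total cell and nucleus. The cytoplasm dots of MAP1B (14.3 and 13.04 FPKM) lie below its total cell dots (186 and 214 FPKM), and those of H4C13 (72.02 and 77.7 FPKM) lie above (10.97 and 12.2 FPKM).

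Genes of ribosomal proteins and nuclear genes of the respiratory chain were mostly higher in the cytoplasm libraries. Of the cytosolic ribosomal protein genes, 79 of 82 tested were called higher and 0 lower, with a median of 1.16, and 81 were called higher relative to the table median. RPS2, a protein of the small ribosomal subunit, had 628 and 579 FPKM in the cytoplasm libraries, against 208 and 219 FPKM in the total cell libraries (1.49 ± 0.14, adjusted p = 1.4e-07, limma). Every cytoplasm value of RPS2 was above every total cell value. RPS29 was the one with the lowest value, and its groups overlapped: it had 11.8 and 10.3 FPKM in the cytoplasm libraries, against 7.32 and 36.6 FPKM in the total cell libraries (-0.56 ± 0.42), with a total cell spread set by 1 library. Mitochondrial ribosomal protein genes counted 58 higher and 7 lower of 77 (median 0.62), and nuclear genes of the respiratory chain 65 higher and 4 lower of 75 (median 0.80). COX8A, a subunit of cytochrome c oxidase, had 115 and 116 FPKM in the cytoplasm libraries, against 39.5 and 44.6 FPKM in the total cell libraries (1.44 ± 0.13). Proteasome subunits counted 21 higher and 3 lower of 34 (median 0.54). PSMB6, a beta subunit of the catalytic core, stood at the top with 73.5 and 67.2 FPKM in the cytoplasm libraries, against 26.3 and 29.9 FPKM in the total cell libraries (1.29 ± 0.13), and PSMD1, a large subunit of the regulatory particle, stood at the bottom (-0.67 ± 0.14).

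Translation factors did not move as 1 group: 34 of 82 were called higher and 18 lower, with a median of 0.11. EIF5A, a small elongation factor, had 86.2 and 84.02 FPKM in the cytoplasm libraries, against 30.5 and 36.8 FPKM in the total cell libraries (1.32 ± 0.14). EIF5B, a large GTPase that joins the ribosomal subunits, had 0.765 and 0.506 FPKM in the cytoplasm libraries, against 7.12 and 8.53 FPKM in the total cell libraries (-2.43 ± 0.13, adjusted p = 2.5e-10, limma). The pair lay at opposite ends of the list, and both were picked after their values were seen. EEF1A1, the abundant elongation factor that brings tRNAs to the ribosome, had 366 and 324 FPKM in the cytoplasm libraries, against 201 and 242 FPKM in the total cell libraries (0.64 ± 0.16), and reads of its processed pseudogenes may be mixed with its own. Chaperones of the endoplasmic reticulum were also divided, with 7 higher and 3 lower of 16 (median 0.24). CALR, a calcium-binding lectin chaperone, had 173 and 156 FPKM in the cytoplasm libraries, against 88.3 and 101 FPKM in the total cell libraries (0.79 ± 0.15). HSP90B1, the HSP90 of that compartment, had 26.6 and 24.5 FPKM in the cytoplasm libraries, against 66.6 and 83.5 FPKM in the total cell libraries (-1.51 ± 0.15), with no overlap between the groups in either chaperone. Immediate early genes, which cells switch on within minutes of a stimulus, counted 7 higher and 4 lower of 17 (median 0.22), from -0.71 for KLF6 to 0.68 for IER3.

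Messages of the mitochondrial genome did not stand out against the total cell libraries, although their transcripts are made and kept outside the nucleus. They summed to 11603 and 9518 FPKM in the cytoplasm libraries, 1064 and 1130 FPKM in the nuclear libraries and 10056 and 10108 FPKM in the total cell libraries. The nuclear libraries were thus far lower: the median nucleus minus total cell was -3.38, beside -1.02 over all genes tested. Of the 13 mitochondrially encoded mRNAs, 2 were called higher and 6 lower, with a median of -0.24, near the median of all genes tested. MT-CO3, a core subunit of cytochrome c oxidase, had 2967 and 2584 FPKM in the cytoplasm libraries, against 1688 and 1877 FPKM in the total cell libraries (0.64 ± 0.16, adjusted p = 0.0018, limma). MT-ND4, a subunit of complex I, had 412 and 328 FPKM in the cytoplasm libraries, against 624 and 563 FPKM in the total cell libraries (-0.69 ± 0.15). Both genes thus differed, but in opposite directions, and relative to the table median 4 of the 13 were called higher and 1 lower. Mitochondrial tRNA genes had a median of 0.57, with 13 of 22 called higher and 5 lower. MT-TA, the alanine tRNA, was the highest of them by the rule for named genes, with 361 and 251 FPKM in the cytoplasm libraries, against 38.3 and 68.7 FPKM in the total cell libraries (2.53 ± 0.23).

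Genes of very large proteins were mostly lower in the cytoplasm libraries. Of the cytoskeletal linkers and motors, 23 of 26 were called lower and 0 higher, with a median of -1.95, and the median exonic length of these genes was 14198.5 bases. MAP2, a microtubule-associated protein of dendrites, had 12.5 and 11.8 FPKM in the cytoplasm libraries, against 61.6 and 75.1 FPKM in the total cell libraries (-2.39 ± 0.14, adjusted p = 8.2e-10, limma). MACF1, which links actin to microtubules, had 1.21 and 1.11 FPKM in the cytoplasm libraries, against 13.3 and 16.1 FPKM in the total cell libraries (-2.85 ± 0.12). DYNC1H1, the heavy chain of cytoplasmic dynein, had 5.79 and 5.04 FPKM in the cytoplasm libraries, against 28.01 and 32.6 FPKM in the total cell libraries (-2.29 ± 0.13). The groups were far apart in all of these, whereas 3 members did not pass the test: MYH9 (-0.27), TLN1 (-0.18) and FLNA (-0.16). FLNA, a crosslinker of actin filaments, had 43.4 and 39.3 FPKM in the cytoplasm libraries, against 44.4 and 48.02 FPKM in the total cell libraries. All 21 tested members of the list of very long neuronal adhesion and synaptic genes were called lower, from -0.54 for NRG1 to -3.20 for ANK3, with a median of -1.51. Their median exonic length was 13759 bases. Among all protein-coding genes with 9876 to 46064 exonic bases, 81.8% were called lower and 4.60% higher (median -0.87), beside 46.8% and 26.2% over all genes tested. How far length sets the counts of these 2 lists was not tested. ROBO1, an axon guidance receptor, had 4.61 and 4.31 FPKM in the cytoplasm libraries, against 18.1 and 21.3 FPKM in the total cell libraries (-1.92 ± 0.12). Genes of the extracellular matrix counted 3 higher and 15 lower of 25 (median -0.37), with SPARC (0.97), COL18A1 (0.55) and COL1A1 (0.38) on the higher side.

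Genes of the nuclear RNA machinery were mostly lower too. Of splicing factors and kinases whose messages are known to be held in the nucleus with unspliced introns, 18 of 26 were called lower and 4 higher, with a median of -0.92. NKTR, a large cyclophilin-related protein, had 0.463 and 0.423 FPKM in the cytoplasm libraries, against 8.12 and 9.73 FPKM in the total cell libraries (-2.78 ± 0.12, adjusted p = 4.9e-11, limma). CLK1, a kinase of SR proteins and a well-studied case of such introns, had 2.99 and 3.099 FPKM in the cytoplasm libraries, 3.04 and 3.603 FPKM in the nuclear libraries and 14.6 and 17.9 FPKM in the total cell libraries (cytoplasm minus total cell -2.09 ± 0.13). For CLK1 the total cell values were thus above those of both fractions. The SR proteins themselves lay on both sides: SRSF2 (0.88), SRSF7 (0.54) and SRSF3 (0.47) were called higher, and SRSF11 (-1.30), SRSF5 (-0.55) and SRSF4 (-0.35) lower. Nuclear pore and export genes counted 3 higher and 14 lower of 21 (median -0.49). RANBP2, a giant pore protein, had 1.002 and 1.04 FPKM in the cytoplasm libraries, against 9.88 and 12.6 FPKM in the total cell libraries (-2.59 ± 0.13). ALYREF, a small export adaptor, had 62.9 and 60.4 FPKM in the cytoplasm libraries, against 24.8 and 26.1 FPKM in the total cell libraries (1.24 ± 0.13). Zinc finger genes, a very large family of DNA-binding repressors, counted 24 higher and 265 lower of 355 (median -0.72). Over all genes tested, 26.2% were called higher and 46.8% lower. The median exonic length was 8037.5 bases for the splicing list, 8320 bases for the pore and export list and 5181 bases for zinc finger genes. Among protein-coding genes with 7518 to 9875 exonic bases, 7.60% were called higher and 65.6% lower (median -0.50). For 5083 to 6150 bases these were 21.9% and 43.8% (median -0.18). How far length sets these counts was not tested.

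**Figure D2:**
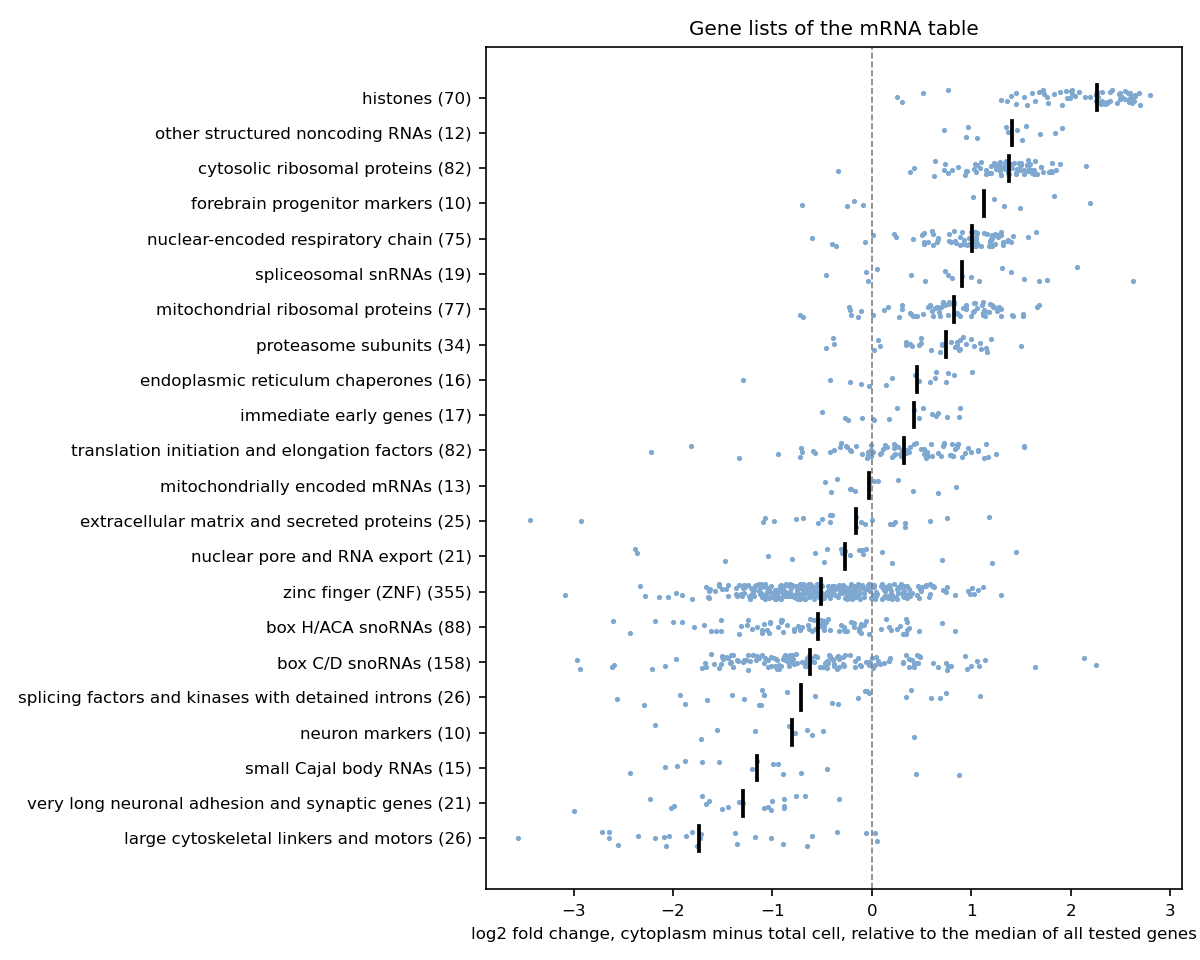
Log2 fold changes, cytoplasm minus total cell, relative to the table median, for the tested members of 22 gene lists of the mRNA table. Each point is a gene, each bar the median of its list, and the number of genes stands in parentheses. Histones (median 2.26) and cytosolic ribosomal proteins (median 1.37) lie to the right of 0 and large cytoskeletal linkers and motors (median -1.74) to the left.

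Markers of the cell types in the culture differed between the fractions. Progenitor markers counted 6 higher and 4 lower of 10 (median 0.91), and their summed level was 834 and 780 FPKM in the cytoplasm libraries, against 444 and 471 FPKM in the total cell libraries. Neuron markers counted 0 higher and 9 lower of 10 (median -1.02), and their sum was 309 and 280 FPKM in the cytoplasm libraries, against 595 and 669 FPKM in the total cell libraries. The 2 sums thus moved in opposite directions, but VIM alone, given below, made up most of the progenitor sum in each of these 4 libraries. HES5, a Notch target of neural progenitors, had 29.5 and 31.3 FPKM in the cytoplasm libraries, against 6.66 and 7.23 FPKM in the total cell libraries (1.98 ± 0.12, adjusted p = 1.2e-09, limma). VIM, the intermediate filament protein of progenitors, had 629.7 and 583 FPKM in the cytoplasm libraries, against 290.5 and 308 FPKM in the total cell libraries (1.02 ± 0.15), whereas the related NES was lower (-0.46 ± 0.14). DCX, a microtubule protein of young neurons, had 24.1 and 21.4 FPKM in the cytoplasm libraries, against 72.7 and 87.5 FPKM in the total cell libraries (-1.77 ± 0.15). TUBB3, the neuronal tubulin, did not pass the test as deposited, with 75.9 and 71.3 FPKM in the cytoplasm libraries, against 61.1 and 65.7 FPKM in the total cell libraries (0.21 ± 0.13), but was called higher relative to the table median (0.42). Ventral forebrain markers counted 1 higher and 4 lower of 5 (median -0.61), with the homeobox gene DLX2 higher (0.69) and GAD1 (-2.45) and GAD2 (-2.02), which encode the GABA-synthesising enzymes, lower. In bulk RNA fewer cells of a type and less RNA per cell cannot be told apart, and whether the fractions sampled the cell types alike was not tested. The median exonic length was 2958.5 bases for the progenitor markers and 4595.5 bases for the neuron markers.

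Markers of the hindbrain, spinal cord and glia were low in both fractions. None of the 8 hindbrain or spinal cord markers reached 1 FPKM, with sums of 0.654 and 0.751 FPKM in the cytoplasm libraries and 0.499 and 0.472 FPKM in the total cell libraries. Of 9 glia markers only OLIG1 was tested (0.35), and their sums were 3.60 and 3.51 FPKM in the cytoplasm libraries and 2.86 and 3.40 FPKM in the total cell libraries. Pluripotency markers summed to 21.04 and 20.03 FPKM in the cytoplasm libraries and 9.75 and 11.9 FPKM in the total cell libraries, with LIN28A called higher (1.25). Mesenchymal, vascular and neural crest markers summed to 65.5 and 59.4 FPKM in the cytoplasm libraries and 41.1 and 48.4 FPKM in the total cell libraries, of which TAGLN (1.33) and ACTA2 (1.15), both smooth muscle genes that other cells also use, were called higher.

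The difference between the fractions followed the length of the message. Over 10786 protein-coding genes with a GENCODE v29 transcript, the log2 fold change had a Spearman rho of -0.59 with transcript length, -0.53 with the length of the coding sequence, -0.37 with that of the 3′ untranslated region and -0.10 with that of the 5′ untranslated region. The shortest eighth of the genes (81 to 1530 nucleotides, 1350 genes) had a median of 0.58, with 68.1% called higher and 11.4% lower. The longest eighth (6982 to 34526 nucleotides, 1349 genes) had a median of -0.91, with 2.74% called higher and 84.8% lower, and the medians of the 6 bins between fell in order. Base composition went along with length: rho was 0.47 with GC content, 0.32 with the mean level and -0.32 between length and GC content. Within 3 equal groups of GC content, low to high, rho with length stayed at -0.52, -0.54 and -0.52, whereas rho with GC content was 0.20, 0.18 and 0.06. Within 3 equal groups of the mean level, rho with length was -0.45, -0.57 and -0.63, low to high. These coefficients describe genes measured in the same 4 libraries, which are not independent of each other, and carry no test. The nuclear libraries share the total cell libraries as their reference, and their medians over the same bins were -0.95 at the short end and -1.27 at the long end. Among lncRNAs length had a rho of 0.05 over 4822 genes, so that no such order was seen there.

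**Figure D3:**
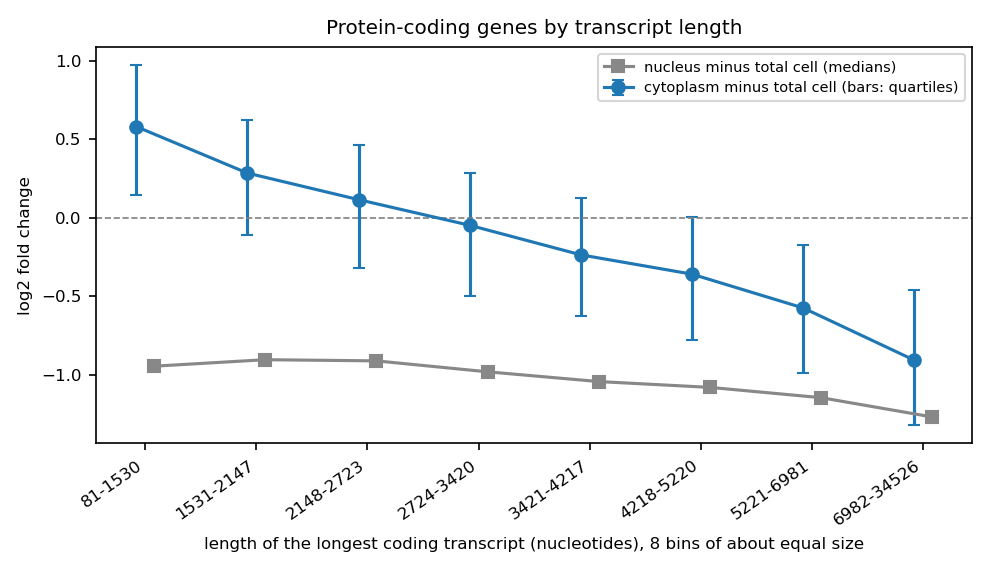
Median log2 fold change of protein-coding genes in 8 bins of transcript length, for cytoplasm minus total cell with bars from the lower to the upper quartile, and for nucleus minus total cell as medians. The cytoplasm medians run from 0.58 in the shortest bin to -0.91 in the longest, and the nuclear medians from -0.95 to -1.27.

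In the gene tables total cell RNA was above both fractions for most RNAs as deposited. As deposited, the 2 total cell values were above all 4 fraction values in 7820 genes of the mRNA table (52.4%), in 3590 lncRNAs (68.3%) and in 521 circRNAs (43.0%), and below all 4 in 182 genes (1.22%), 56 lncRNAs (1.07%) and 4 circRNAs (0.330%). After scaling to the table medians the total cell values were above all 4 in 5361 genes (35.9%), 2104 lncRNAs (40.1%) and 210 circRNAs (17.3%), and below all 4 in 4734 genes (31.7%), 1502 lncRNAs (28.6%) and 87 circRNAs (7.17%). By transcript length, 199 of 1350 protein-coding genes (14.7%) in the shortest bin and 1192 of 1349 (88.4%) in the longest bin were above both fractions as deposited. After scaling, 117 (8.67%) of the shortest bin were above and 771 (57.1%) below, against 925 (68.6%) above and 97 (7.19%) below in the longest bin. ANK3 is such a gene, with 0.269 and 0.268 FPKM in the cytoplasm libraries, 0.512 and 0.679 FPKM in the nuclear libraries and 9.91 and 11.5 FPKM in the total cell libraries. What sets these values was not tested.

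Nuclear guide RNAs were mostly lower in the cytoplasm libraries. Of the box C/D small nucleolar RNAs, which guide ribose methylation, 110 of 158 tested were called lower and 14 higher, with a median of -0.83. Of the box H/ACA class, which guides pseudouridylation, 66 of 88 were lower and 2 higher (median -0.75), and of the small Cajal body RNAs, which act on spliceosomal RNAs, 12 of 15 were lower and 1 higher (median -1.36). Relative to the table median the 3 classes counted 85, 47 and 11 lower and 17, 2 and 2 higher. Over all genes tested, 46.8% were called lower and 26.2% higher as deposited, and 41.1% and 39.1% relative to the median. SNORD17 and SCARNA21, shown here as examples of the 2 guide structures, carry the letters by which the classes are known. Capitals mark TGATGA, the box C, near the start and CTGA, the box D, near the end of SNORD17 (hg38, chr20:17962710-17962946, minus strand), and the ACA box with the 3 last bases of SCARNA21 (hg38, chr17:7906122-7906260, plus strand).
SNORD17: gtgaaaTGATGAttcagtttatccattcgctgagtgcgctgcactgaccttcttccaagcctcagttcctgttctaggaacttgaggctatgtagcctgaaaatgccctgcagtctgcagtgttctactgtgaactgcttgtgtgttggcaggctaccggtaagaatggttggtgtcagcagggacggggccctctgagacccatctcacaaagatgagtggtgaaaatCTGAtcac
SCARNA21: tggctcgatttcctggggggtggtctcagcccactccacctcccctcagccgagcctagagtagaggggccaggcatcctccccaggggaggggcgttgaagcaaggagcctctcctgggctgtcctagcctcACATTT
A search of the annotated strand found TGATGA in the first 30 bases together with CTGA in the last 20 bases in 99 of 149 box C/D RNAs with a sequence (66.4%) and in 0 of 80 box H/ACA RNAs. ACA followed by 3 last bases, or by a base more or fewer, was found in 67 of 80 box H/ACA RNAs (83.8%) and in 8 of 149 box C/D RNAs (5.37%). SNORD17 had 12.7 and 14.6 FPKM in the cytoplasm libraries, 256 and 178 FPKM in the nuclear libraries and 128 and 134 FPKM in the total cell libraries (cytoplasm minus total cell -3.18 ± 0.17, adjusted p = 2.7e-10, limma). SCARNA21 had 52.9 and 57.8 FPKM in the cytoplasm libraries, 417 and 374 FPKM in the nuclear libraries and 325 and 378 FPKM in the total cell libraries (-2.64 ± 0.15). In both RNAs the cytoplasm libraries were lowest, with no overlap with the others. SNORA73B, a box H/ACA RNA that binds ribosomal RNA precursors, had 5.11 and 6.29 FPKM in the cytoplasm libraries, 117 and 71.7 FPKM in the nuclear libraries and 37.8 and 43.6 FPKM in the total cell libraries (-2.64 ± 0.18).

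SNORD3A, the U3 RNA that takes part in cutting the ribosomal RNA precursor, was an exception without a call. It had 332 and 547 FPKM in the cytoplasm libraries, 2086 and 2512 FPKM in the nuclear libraries and 295 and 788 FPKM in the total cell libraries (cytoplasm minus total cell -0.18 ± 0.32). Its total cell libraries disagreed, and the groups overlapped: without total cell replicate 2 the log2 fold change was 0.53. Its copy SNORD3C also overlapped, with 51.3 and 83.3 FPKM in the cytoplasm libraries, 279 and 337 FPKM in the nuclear libraries and 37.3 and 99.3 FPKM in the total cell libraries (0.10 ± 0.31, and -0.60 without total cell replicate 1). SNORD118 and SNORD13, box C/D RNAs named after their values were seen, were called higher, SNORD13 with 62.4 and 55.1 FPKM in the cytoplasm libraries, against 21.8 and 20.6 FPKM in the total cell libraries (1.43 ± 0.14). SNORD118, the U8 RNA of ribosome assembly, had 26.5 and 29.2 FPKM in the cytoplasm libraries, 10.4 and 10.5 FPKM in the nuclear libraries and 6.53 and 6.68 FPKM in the total cell libraries (1.92 ± 0.12, adjusted p = 1.4e-09, limma).

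Listed structured RNAs, several of which work in the nucleus, were higher in the libraries labelled cytoplasm than in the total cell libraries. For those of the nucleus this goes against that label, which was used as given. Other RNAs went with the label, such as the mitochondrial messages above. The 11 tested genes annotated as small Cajal body RNAs had a median log2 fold change of -2.30, cytoplasm minus nucleus. All 12 tested members of the list of structured noncoding RNAs were called higher (median 1.203), and so were 13 of 19 spliceosomal RNAs, with 1 lower (median 0.69). The annotated classes that also hold their many copies and pseudogenes leaned the other way, with 41 higher and 92 lower of 143 snRNA genes (median -1.37) and 16 higher and 34 lower of 54 miscellaneous RNA genes (median -1.08). RN7SK, the 7SK RNA that holds the elongation factor P-TEFb in the nucleus, had 72498 and 72426 FPKM in the cytoplasm libraries, 15600.0 and 14236 FPKM in the nuclear libraries and 26484 and 25431 FPKM in the total cell libraries (cytoplasm minus total cell 1.48 ± 0.17, adjusted p = 8.7e-07, limma). RPPH1, the RNA of the tRNA-cutting enzyme RNase P, had 11554 and 14148 FPKM in the cytoplasm libraries, 1193 and 1215 FPKM in the nuclear libraries and 3485 and 4457 FPKM in the total cell libraries (1.70 ± 0.18). As deposited both were highest in the cytoplasm libraries and lowest in the nuclear libraries. The typical gene was low in the nuclear libraries too, with a median nucleus minus total cell of -1.02 over all genes tested. The order of the nuclear and total cell libraries for RN7SK thus depends on the scale. RNU6-2, a gene of the U6 spliceosomal RNA, had 13.1 and 11.5 FPKM in the cytoplasm libraries, 4.04 and 4.22 FPKM in the nuclear libraries and 2.41 and 4.99 FPKM in the total cell libraries (1.55 ± 0.19). RNU12, of the minor spliceosome, had 82.6 and 92.6 FPKM in the cytoplasm libraries, 29 and 26.7 FPKM in the nuclear libraries and 23.5 and 23.5 FPKM in the total cell libraries (1.85 ± 0.13). RMRP, a relative of RPPH1, was also called higher against the total cell libraries but was highest in the nucleus, with 5662 and 6998 FPKM in the cytoplasm libraries, 13512 and 11244 FPKM in the nuclear libraries and 4027 and 4846 FPKM in the total cell libraries (0.51 ± 0.18). RN7SL1, the RNA of the signal recognition particle, which works in the cytoplasm, had 81288 and 108530.0 FPKM in the cytoplasm libraries, 59026 and 52521 FPKM in the nuclear libraries and 54208 and 56661 FPKM in the total cell libraries (0.76 ± 0.19). Most of these genes have many near-identical copies, among which reads may be split.

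Genes that are not protein-coding lay at both ends of the mRNA table, spliceosomal RNA genes or their pseudogenes among them. RNVU1-19, a variant U1 gene, had 46.8 and 47.1 FPKM in the cytoplasm libraries, against 7.39 and 6.32 FPKM in the total cell libraries (2.61 ± 0.13), and every cytoplasm value was above every total cell value. At the low end MALAT1, a long RNA of nuclear speckles, had 34.6 and 34.5 FPKM in the cytoplasm libraries, 63.4 and 77.4 FPKM in the nuclear libraries and 668 and 838 FPKM in the total cell libraries (-4.40 ± 0.16, adjusted p = 1.2e-11, limma). MALAT1 was thus low in both fractions beside the total cell libraries. The low genes AUXG01000058.1 (-5.40), AP000769.5 (-4.29) and Z99774.2 (-4.04) have no entry in the annotation used here, and the U6 pseudogene RNU6-1016P had 0 and 0.931 FPKM in the cytoplasm libraries, against 14.96 and 20.8 FPKM in the total cell libraries.

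Long noncoding RNAs known from the nucleus were mostly lower in the cytoplasm libraries. Of 10 tested nuclear or chromatin lncRNAs, 9 were called lower and 0 higher, with a median of -1.13, beside -0.46 over all lncRNAs tested. MIAT, a nuclear RNA of neurons, had 1.196 and 1.2004 FPKM in the cytoplasm libraries, 1.55 and 1.701 FPKM in the nuclear libraries and 14.97 and 18.7 FPKM in the total cell libraries (cytoplasm minus total cell -3.01 ± 0.13, adjusted p = 1.8e-05, limma). KCNQ1OT1, which silences an imprinted domain in cis, had 0.0164 and 0.0267 FPKM in the cytoplasm libraries, 0.0399 and 0.0507 FPKM in the nuclear libraries and 1.05 and 1.22 FPKM in the total cell libraries (-1.06 ± 0.07). NEAT1, the scaffold of paraspeckles, had 0.627 and 0.621 FPKM in the cytoplasm libraries, 0.401 and 0.508 FPKM in the nuclear libraries and 1.84 and 2.21 FPKM in the total cell libraries (-0.89 ± 0.10). As deposited these 3 RNAs were highest in the total cell libraries, and NEAT1 was lower in the nuclear libraries than in the cytoplasm libraries. The typical lncRNA was low in the nuclear libraries too, with scaling factors of 0.50 and 0.59 there and 1.05 and 0.99 in the cytoplasm libraries. The order of NEAT1 between these fractions thus depends on the scale. H19, an imprinted and mainly cytoplasmic RNA, had 45.1 and 41.1 FPKM in the cytoplasm libraries, 5.35 and 4.82 FPKM in the nuclear libraries and 16.9 and 16.2 FPKM in the total cell libraries (1.33 ± 0.13, adjusted p = 8.2e-05). NORAD, which binds Pumilio proteins in the cytoplasm, had 26.1 and 24.4 FPKM in the cytoplasm libraries, 12.1 and 14.8 FPKM in the nuclear libraries and 33.4 and 40.7 FPKM in the total cell libraries. NORAD was called lower as deposited (-0.53 ± 0.16) but higher in the scaled fit, while its difference from the table median was -0.07, so its direction depends on the scale. The 6 tested cytoplasmic lncRNAs counted 2 higher and 2 lower as deposited (median -0.19), and 5 higher and 0 lower relative to the median.

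Host genes of small RNAs were divided. Small nucleolar RNA host genes counted 9 higher and 7 lower of 26 (median -0.01), and 17 higher and 1 lower relative to the table median. SNHG16 had 19.9 and 19.6 FPKM in the cytoplasm libraries, against 7.46 and 9.44 FPKM in the total cell libraries (1.14 ± 0.15, adjusted p = 0.00041, limma). SNHG14, a long host transcript of the imprinted Prader-Willi region, had 0.914 and 0.879 FPKM in the cytoplasm libraries, against 4.21 and 5.23 FPKM in the total cell libraries (-1.59 ± 0.12). MicroRNA host genes, whose transcripts are cut by Drosha in the nucleus, counted 4 higher and 19 lower of 28 (median -0.69), beside 11.5% higher and 60.9% lower over all lncRNAs tested (median -0.46). MIR124-2HG, a host of the neuronal miR-124, had 2.43 and 2.22 FPKM in the cytoplasm libraries, against 19.1 and 23.01 FPKM in the total cell libraries (-2.73 ± 0.14). Antisense genes with an AS name counted 75 higher and 412 lower of 695 (median -0.39) and LINC genes 19 higher and 94 lower of 159 (median -0.36), both near the median of all lncRNAs. Sense intronic lncRNAs, which lie inside introns of other genes, had a median of -0.81, with 7 of 361 called higher and 315 lower.

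Overlap with protein-coding exons touched the lncRNA table. The 2308 tested lncRNAs without such an overlap had a median of -0.65, with 134 called higher and 1722 lower, and the 2514 with one had a median of -0.27, with 424 higher and 1207 lower. Relative to the table median the lncRNAs without overlap counted 357 higher and 1322 lower and those with overlap 1096 higher and 596 lower. VCAN-AS1, named among the lowest, had 5.58 and 5.62 FPKM in the cytoplasm libraries, against 74.4 and 91.5 FPKM in the total cell libraries (-3.66 ± 0.16), and it shares exons with VCAN on the other strand. Among the 8 highest, AL355075.4 (1.70) covers RPPH1, Z93241.1 (1.87) covers RNU12 and AC245014.3 (1.69) covers the U1 variant RNVU1-14. VIM-AS1, which shares exons with VIM, had 277 and 255 FPKM in the cytoplasm libraries, against 123 and 116 FPKM in the total cell libraries (1.15 ± 0.14). Values of the 2 FPKM tables agreed within 2% for 70.8% of lncRNAs without exonic overlap and for 16.0% of those with it. No source used here gives the strand setting, so reads of such pairs cannot be told apart.

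Among circRNAs 30 of the 32 calls lay on the lower side as FPB, whereas per read of the gene tables limma called 31 higher and 7 lower. The rings below are shown because they are the ones the comparison names, and each sequence gives the back-splice junction that the reads cross. The letters are 20 bases on each side from the GENCODE v29 transcripts (hg38): lower case for the end of the last exon and capitals for the start of the first exon, 5′ to 3′. The ring of VCAN is exon 8 alone (chr5:83537007-83542268, plus strand, 5262 nucleotides), that of TET2 exon 3 (chr4:105233897-105237351, plus strand, 3455 nucleotides) and that of ARHGAP5 exon 2 (chr14:32090502-32094386, plus strand, 3885 nucleotides). That of QSER1 holds exons 2 to 4 (chr11:32927157-32935435, plus strand, 3968 nucleotides), that of SLC4A7 exons 8 to 25 (chr3:27379249-27424152, minus strand, 2548 nucleotides) and that of RMST exons 7 to 15 (chr12:97492461-97561047, plus strand, 1591 nucleotides).
VCAN: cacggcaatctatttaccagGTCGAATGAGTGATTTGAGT
TET2: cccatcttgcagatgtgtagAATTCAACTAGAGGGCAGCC
ARHGAP5: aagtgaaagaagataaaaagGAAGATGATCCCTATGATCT
QSER1: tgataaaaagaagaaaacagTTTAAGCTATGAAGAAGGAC
SLC4A7: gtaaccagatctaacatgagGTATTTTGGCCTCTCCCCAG
RMST: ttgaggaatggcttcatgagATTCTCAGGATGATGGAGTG
The ring of VCAN had 2.04 and 2.45 FPB (41 and 51 reads) in the cytoplasm libraries, 1.73 and 2.78 FPB in the nuclear libraries and 14.04 and 13.9 FPB (114 and 141 reads) in the total cell libraries (cytoplasm minus total cell -2.58 ± 0.24, adjusted p = 0.00016, limma). The ring of SLC4A7, a bicarbonate transporter gene, had 0.549 and 0.432 FPB (11 and 9 reads) in the cytoplasm libraries, against 3.08 and 4.33 FPB (25 and 44 reads) in the total cell libraries (-2.63 ± 0.38, adjusted p = 0.0031). In both the total cell values were above all others. The rings of TET2 (-2.62 ± 0.55), ARHGAP5 (-2.18 ± 0.35) and QSER1 (-2.10 ± 0.41) were called lower as well. None of them was called relative to the table median (adjusted p = 0.23, 0.072 and 0.16, limma). Per read of the gene tables they were not called either (adjusted p = 0.074, 0.078 and 0.097, limma).

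The largest fall was that of a ring of ZNF91 (chr19:23358430-23362725), for which no single annotated transcript held both ends. It had 0.0499 and 0.0960 FPB in the cytoplasm libraries, 0.659 and 0.9497 FPB in the nuclear libraries and 8.37 and 12.6 FPB for the total cell (-5.74 ± 0.38, adjusted p = 7e-06, limma). These values rest on 1 and 2 reads in the cytoplasm libraries and on 68 and 128 reads in the total cell libraries, a ratio of 0.00684 with a 95% exact interval of 0.00140 to 0.0203 that covers counting error only. CDR1-AS, the ring that binds miR-7 in neurons, had 6.58 and 6.82 FPB in the cytoplasm libraries, 5.03 and 5.83 FPB in the nuclear libraries and 28.2 and 30.05 FPB for the total cell (-2.10 ± 0.13, adjusted p = 5.7e-06). The total cell libraries were highest in both rings, and the ZNF91 message itself was low in the same libraries, as given above. A second ring of VCAN, exons 8 to 12, had 3 reads in the cytoplasm libraries together and 66 in the total cell libraries (-4.30 ± 0.54, ratio 0.0203, interval 0.00408 to 0.0620). Rings of ZNF644 and PDCD11 had 0 reads in both cytoplasm libraries, and against a floor of 3 reads they were at least 6.54-fold and at least 6.29-fold lower. On the other side, a ring of CLASP1 (35 reads in the cytoplasm libraries and 0 in the total cell libraries) was at least 2.57-fold higher and a ring of TTC39C (40 and 0 reads) at least 2.95-fold higher. The rings of ZNF644, PDCD11, CLASP1 and TTC39C each reached the filter through 1 fraction alone, so their direction was fixed in advance. None of them was called relative to the table median (adjusted p = 0.096, 0.21, 0.070 and 0.19, limma). Per read of the gene tables all but that of ZNF644 were called. The rings of ZNF91 and of VCAN exons 8 to 12 also reached the filter through the total cell libraries alone.

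Other abundant rings were called lower or did not pass the test. In the most abundant eighth of the rings the median log2 fold change was -0.45, beside -0.38 over all rings, and 13.2% were called lower. RMST, a lncRNA gene of neural differentiation whose ring was the most abundant of all, gave 42.04 and 47.7 FPB (843 and 994 reads) in the cytoplasm libraries, 19.2 and 20.8 FPB in the nuclear libraries and 74.3 and 71.2 FPB (603 and 723 reads) in the total cell libraries (cytoplasm minus total cell -0.70 ± 0.07, adjusted p = 0.00029, limma). RIMS1, a gene of the presynaptic active zone, gave 10.9 and 10.7 FPB in the cytoplasm libraries, against 25.6 and 22.3 FPB in the total cell libraries (-1.14 ± 0.13). The ring of MSANTD3-TMEFF1 was also called lower (-1.05 ± 0.13), with no overlap between the groups in these 3. None of these 3 was called relative to the table median or per read of the gene tables. The well-known rings of HIPK3 (-0.52 ± 0.16), SMARCA5 (-0.30 ± 0.12) and ZNF609 (-0.24 ± 0.18) did not pass the test, nor did those of MAN1A2 (-0.77 ± 0.21), CAMSAP1 (-0.10 ± 0.11) and CDYL (-0.02 ± 0.20). CAMSAP1 gave 15.2 and 14.2 FPB in the cytoplasm libraries, 11.04 and 10.9 FPB in the nuclear libraries and 15.3 and 16.3 FPB for the total cell.

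**Figure D4:**
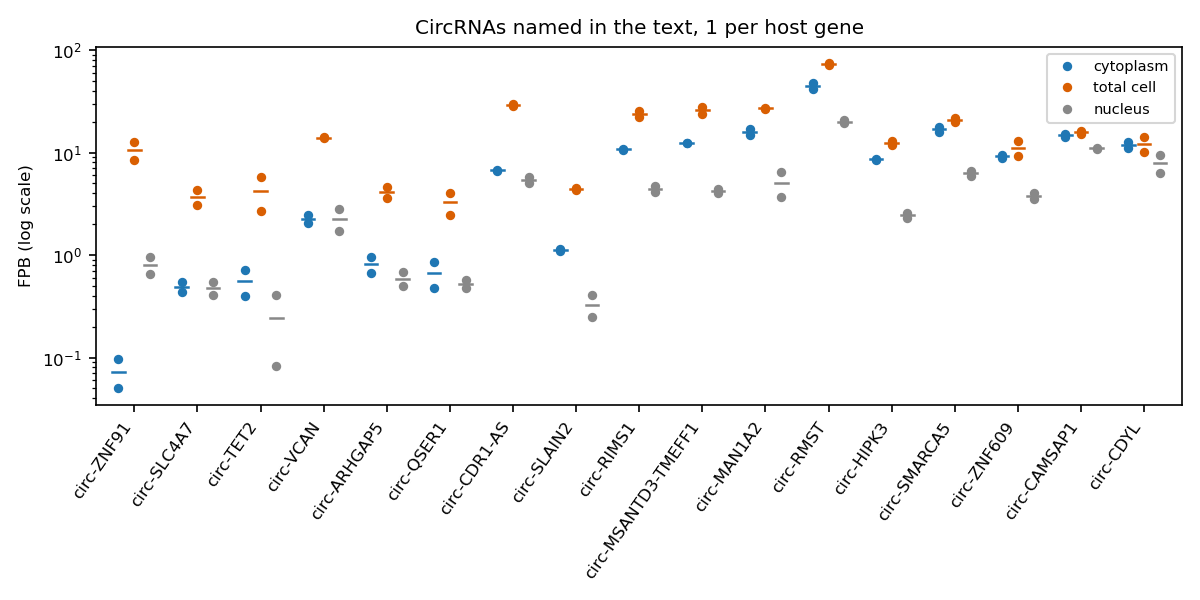
FPB on a log axis of the 17 circRNAs named by the rule, labelled by host gene, with dots for libraries and lines for the mean of each fraction. The dots of ZNF91 (0.0499 and 0.0960 FPB in cytoplasm, 8.37 and 12.6 FPB in total cell) lie farthest apart, and those of CAMSAP1 (15.2 and 14.2 FPB, against 15.3 and 16.3 FPB) lie next to each other.

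The 30 rings called lower included many long ones. Their median spliced length was 1435.5 nucleotides, beside 449 over all circRNAs tested, and their median A content was 32.4%, beside 30.5%. In the longest eighth by spliced length (1117 to 8888 nucleotides) the median log2 fold change was -0.67 and 10.7% were called lower, whereas the other bins had at most 2.68% called lower. Over all rings, however, spliced length had a Spearman rho of -0.06 with the log2 fold change, A content -0.14 and the log2 fold change of the host gene 0.30 (1124 rings), as descriptions across rings of the same 4 libraries. Of the 30 rings, 29 had a host gene with values, and for all 29 rings that host was itself called lower (median -1.30). Over all rings tested this held for 843 of the 1124 rings with a host value (median -0.74). These are counts of rings, so a host with several rings, such as VCAN, ARHGAP5 or RIMS1, is counted once for each. A gene and its ring share exons, and how far reads of one enter the other's value was not tested.

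The direction of the circRNA table as a whole depended on what its reads were divided by. The FPB steps correspond to 20.1 and 20.8 Gb of bases in the cytoplasm libraries, against 8.12 and 10.2 Gb in the total cell libraries, although the gene tables gave both fractions similar read totals. Back-splice reads per Gb were 2294 and 2508 in the cytoplasm libraries, against 3216 and 3282 in the total cell libraries. Per Mread of the gene tables they were 1190 and 1143 in the cytoplasm libraries, against 749 and 890 in the total cell libraries. The order of the fractions was thus the opposite under the 2 denominators. Per read of the gene tables the median over the 1213 rings was 0.45, with 71.5% of them above 0, beside -0.38 and 28.0% as FPB, and limma called 31 rings higher and 7 lower in place of 2 and 30. The falls of ZNF91 (-5.35), of both VCAN rings (-1.66 for exon 8 and -4.01 for exons 8 to 12), of CDR1-AS (-1.16) and of SLC4A7 (-1.83) passed under both. The ring of RMST changed sign (0.25) without passing the test, and those of CAMSAP1 (0.84) and CDYL (0.93) were called higher.

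**Figure D5:**
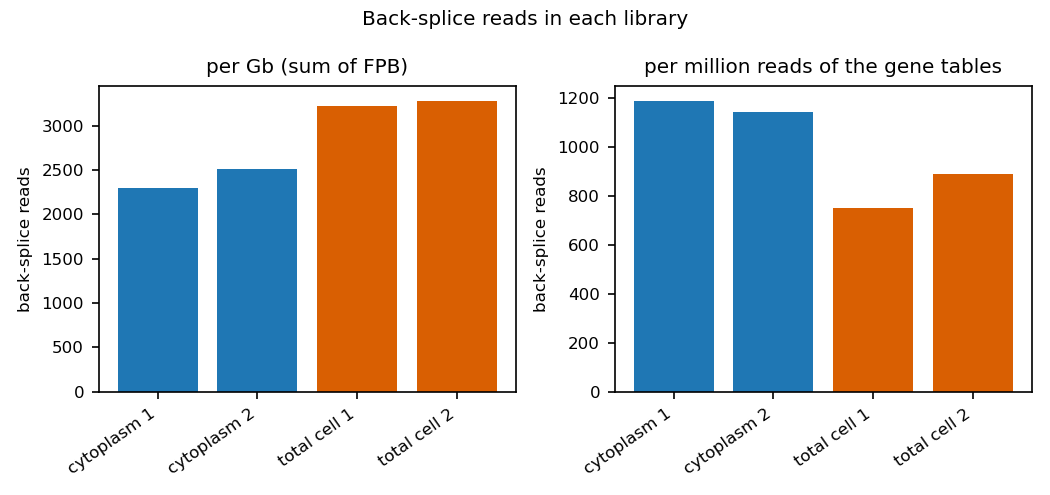
Back-splice reads of the 4 libraries as bars, on the left per Gb of the FPB denominator and on the right per Mread of the gene tables. The cytoplasm bars (2294 and 2508) are lower than the total cell bars (3216 and 3282) on the left, and higher (1190 and 1143, against 749 and 890) on the right.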

How the data were processed

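RNA of the cytoplasm, the nucleus and the total cell was depleted of ribosomal RNA and sequenced as stranded libraries, per the labels' protocols. Tools named in the submitters' processing notes, with no role, are featureCounts 2.0.1, HISAT2 2.1.0, SAMtools 1.9, Trimmomatic 0.39 and Bowtie, with hg38 (GRCh38) as the build. No source used here names the circRNA caller, the annotation or the strand setting. Gene values are FPKM made by the authors, per the file headers. CircRNA values are an FPB signal that the authors deposited, and reading it as fragments per Gb of mapped bases is an assumption. Each FPB value was a whole multiple of 1 read within 0.05 reads (100%), so whole reads were recovered. Low FPKM values times GENCODE v29 exon lengths, simple fractions of a read included, were whole in 65.8% to 74.1% of genes of the mRNA table.

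Values were tested as log2(value + pseudocount), 1 FPKM or 0.123 FPB, with limma 3.58.1 (R 4.3.3) with a trend on the mean level; 3 fractions over 6 libraries made up the model, with Benjamini-Hochberg adjustment at 0.05 within each table. Relative results come from libraries divided by median-ratio factors, and relative fold changes are as deposited minus the table median. edgeR 4.0.16 (quasi-likelihood) on recovered reads was an alternative. So were another pseudocount, no filter, 1 library left out at a time, a fit of the 4 libraries alone, unmoderated spreads, a replicate block, and restriction to protein-coding genes or to lncRNAs without overlap. On simulated data with 200 changed features, 2-fold and 4-fold changes were recovered at 89% and 99% in the mRNA table, 86% and 91% in the lncRNA table and 12% and 49% in the circRNA table.

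The comparison, its members and the 33 gene lists were chosen with earlier results of these data known. Named features are, per table, the 8 highest and 8 lowest (in the mRNA table also 5 and 5 that are not protein-coding) among called features with a mean of 5 times the filter and groups that did not overlap, the 3 members of each list with the highest mean, the 8 circRNAs with the highest mean and 4 well-known rings. Genes outside this rule were named after their values were seen. Some features that it names are not reported here. Gene types, lengths and sequences came from GENCODE v29 by symbol, with 54882 genes of the mRNA table matched directly, 1646 through a newer symbol and 3015 without a match. Of the 1213 circRNAs tested, 1187 were placed on an annotated transcript with both ends, and all exons between were assumed to be kept.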

Additional observations from a re-analysis of the deposited data

How the results depend on the processing

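In the mRNA and lncRNA tables the counts of calls moved by more than 1.5 times under few alternatives. With no filter on low values, 45580 genes of the mRNA table were tested in place of 14924. Of these, 18639 were called lower as deposited (6982 with the filter) and 13369 relative to the median. Likewise 14339 lncRNAs were tested in place of 5253, of which 6092 and 3587 were called lower. Such counts rest on different numbers of features tested, so they are not shares that can be compared directly. Among the 2308 lncRNAs without exonic overlap 128 were called higher and 1720 lower as deposited, and 600 and 1036 relative to the median. Leaving out 1 library at a time gave 3128 to 4309 higher and 6096 to 7563 lower genes of the mRNA table (relative 5344 to 5818 and 5596 to 6091), and 429 to 639 higher and 2831 to 3308 lower lncRNAs (relative 1283 to 1546 and 1889 to 2075).

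The circRNA calls depended on the setting, and with no filter 27807 rings were tested in place of 1213. As deposited, the 2 higher calls became 0 with no filter, with only the 4 libraries, with each ring's own spread and with the factors of the mRNA table, 1 under the replicate block, 31 per read of the gene tables and 32 so with edgeR. The 30 lower calls became 7 with no filter, 58 with only the 4 libraries, 0 with the own spread, 75 with a pseudocount of 0.5 FPB, 5 with the mRNA factors, 62 with edgeR on FPB reads, 7 per read of the gene tables and 8 so with edgeR. Leaving out 1 library gave 0 to 7 higher and 2 to 48 lower calls. Relative to the median the 0 higher calls became 4 with edgeR, 1 with no filter, 5 with only the 4 libraries, 1 with the own spread, 2 with a pseudocount of 0.5 FPB, and 0 to 3 with 1 library left out. The 6 lower calls there became 19 with edgeR, 23 with only the 4 libraries, 0 with the own spread, 10 with that pseudocount and 1 to 23 with 1 library left out. In all these the cause was not tested.

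Single features changed sign as follows. Without total cell replicate 1 and without total cell replicate 2, SNORD3A was -0.88 and 0.53, SNORD3C -0.60 and 0.80, NORAD (relative) -0.16 and 0.0044, and LINC01578 (relative) -0.064 and 0.14. Relative to the median, FLNA was -0.051, RMST (lncRNA) -0.25 and LINC01578 -0.33 with no filter. LINC01578 was -0.04 without cytoplasm replicate 2. NORAD was 0.39 with a pseudocount of 0.1 FPKM and 0.12 without overlapping lncRNAs, where LINC01551 was 0.091. The circRNA of CAMSAP1 was -0.34 with no filter. Per read of the gene tables the rings of RMST (0.25 with limma and with edgeR), CAMSAP1 (0.84 and 0.84) and CDYL (0.93 and 0.94) were positive.

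The labels give the fractions the same replicate numbers, but the deviations of same-numbered cytoplasm and total cell libraries had correlations of 0.05, 0.02 and 0.00 in the mRNA, lncRNA and circRNA tables, and those of nuclear and total cell libraries 0.29, 0.20 and 0.07, and of cytoplasm and nuclear libraries -0.12, -0.12 and -0.03. The numbers were not taken to pair cytoplasm with total cell libraries. With the replicate block 1 circRNA was called higher and 41 lower. edgeR and limma shared 3648 higher and 6611 lower calls of the mRNA table, where limma made 3845 and 6827 among the genes that edgeR tested. Depth limits the low rings of the circRNA table: 3 reads came to 0.150 and 0.144 FPB for the cytoplasm, against 0.369 and 0.296 FPB for the total cell.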
